A study of Mus musculus with 13 samples.

Results

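A set of 665 accessible chromatin regions gained signal after birth in several cell types of the mouse kidney. They were chosen from the 300755 peaks of a single nucleus ATAC-seq (snATAC-seq) data set by a rule on the measured values. Open calls, each a nucleus with at least 1 fragment in a peak, were summed per cell type and stage and scaled to calls per 1000000 open calls (CPM). A peak was kept when its adult CPM was at least 10 and at least 2 times its P0 CPM in 3 or more of 5 cell types: the convoluted proximal tubule (PCT, the deposited cluster PT), loop of Henle, principal cells, endothelial cells and stroma 2. The members were 0.221% of all peaks, and 4.13% of the 16119 peaks that had an adult CPM of at least 10 in 3 or more of these types, called eligible peaks here. The mirrored rule, with P0 and adult exchanged, kept 872 peaks. The P0-to-adult values of the 5 types therefore chose the members and are given as a description, with no test.

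Nuclei came from whole mouse kidneys at 3 ages, with no treatment named: 2 P0 samples (per the labels' protocol, both kidneys of 1-day-old mice), 1 sample at P21 (3 weeks) and 2 samples at P56 (8 weeks). P21 and P56 together form the adult group. The adult mice were perfused before dissection and their tissue was lysed in a larger volume than that of the P0 mice, so handling and age cannot be told apart. Strain, sex, number of animals per sample and time of day are not given in the labels.

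A kidney at birth still forms nephrons, and its tubules then take on transport of filtered salt, water and nutrients. Many open regions outside promoters are enhancers, short stretches where transcription factors displace nucleosomes, and most enhancers are used in 1 or a few cell types. Whether the members are enhancers was not tested. A region that opens in epithelium, endothelium and stroma alike can be bound by factors that many cells share, such as circadian clock proteins, hormone receptors and their target factors. The clock runs in nearly every cell type, with CLOCK and ARNTL (BMAL1) binding the E-box, PER and CRY proteins repressing them, and DBP, TEF and HLF binding the D-box. Glucocorticoid and thyroid hormone act through nuclear receptors that are also present in most cells of the kidney.

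The central 300 bp of 6 members that the naming rule selected are printed because the named results return to these regions and because they show how few of the searched motifs a window holds. They are from the reference strand of mm10 (GRCm38). Capitals mark matches to the searched motifs on either strand.
Cry2 intron, chr2:92423839-92424138: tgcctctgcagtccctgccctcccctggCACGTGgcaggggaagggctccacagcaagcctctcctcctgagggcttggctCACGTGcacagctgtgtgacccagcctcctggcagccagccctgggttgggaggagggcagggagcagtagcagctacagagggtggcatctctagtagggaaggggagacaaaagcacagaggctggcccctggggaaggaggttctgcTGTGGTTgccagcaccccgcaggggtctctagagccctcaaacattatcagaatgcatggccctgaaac
Near Zmynd8, chr2:165938510-165938809: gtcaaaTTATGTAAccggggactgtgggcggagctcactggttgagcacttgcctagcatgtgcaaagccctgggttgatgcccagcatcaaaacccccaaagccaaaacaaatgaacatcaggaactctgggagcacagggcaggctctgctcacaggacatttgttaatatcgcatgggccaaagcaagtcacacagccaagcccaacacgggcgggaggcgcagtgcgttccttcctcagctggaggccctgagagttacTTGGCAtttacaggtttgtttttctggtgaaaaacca
Lncpint start, chr6:31216595-31216894: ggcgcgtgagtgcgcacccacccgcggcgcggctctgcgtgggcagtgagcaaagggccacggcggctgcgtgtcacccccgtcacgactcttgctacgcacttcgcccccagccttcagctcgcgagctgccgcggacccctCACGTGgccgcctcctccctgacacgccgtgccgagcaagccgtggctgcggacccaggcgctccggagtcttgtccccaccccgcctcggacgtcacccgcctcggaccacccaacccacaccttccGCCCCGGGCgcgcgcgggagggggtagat
Zhx3 intron, chr2:160805238-160805537: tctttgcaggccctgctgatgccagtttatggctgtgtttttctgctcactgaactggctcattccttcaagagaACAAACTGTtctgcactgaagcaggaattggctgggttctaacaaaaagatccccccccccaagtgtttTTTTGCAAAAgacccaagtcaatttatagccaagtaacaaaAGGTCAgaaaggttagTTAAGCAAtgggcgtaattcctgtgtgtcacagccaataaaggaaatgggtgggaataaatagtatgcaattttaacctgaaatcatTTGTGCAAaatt
Bcar1 intron, chr8:111726528-111726827: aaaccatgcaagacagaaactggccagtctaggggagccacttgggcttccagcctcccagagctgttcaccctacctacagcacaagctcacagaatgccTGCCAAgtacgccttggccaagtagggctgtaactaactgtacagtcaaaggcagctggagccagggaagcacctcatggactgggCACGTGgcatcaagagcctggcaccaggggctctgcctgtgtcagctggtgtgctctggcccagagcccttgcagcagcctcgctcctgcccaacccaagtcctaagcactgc
Syn3 and Timp3 intron, chr10:86339872-86340171: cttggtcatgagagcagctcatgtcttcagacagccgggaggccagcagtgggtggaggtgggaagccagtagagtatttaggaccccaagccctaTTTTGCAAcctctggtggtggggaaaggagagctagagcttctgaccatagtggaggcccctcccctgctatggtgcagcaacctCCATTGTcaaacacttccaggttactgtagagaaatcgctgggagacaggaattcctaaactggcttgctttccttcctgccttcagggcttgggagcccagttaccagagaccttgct

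The windows differed in the motifs they held. The Cry2 window had 2 E-boxes (CACGTG) and 1 RUNX match (TGTGGTT). The window 39644 bp from the Zmynd8 start held a D-box (TTANGTAA) and a nuclear factor I half-site (TTGGCA). The Lncpint window had 1 E-box and 1 TFAP2 match (GCCNNNGGC). In Zhx3 there were 4 C/EBP matches (TTGCNNAA, 2 of them overlapping on opposite strands), a steroid receptor core (ACANNNTGT) and a nuclear receptor half-site (AGGTCA). The Bcar1 window held 1 E-box and 1 nuclear factor I half-site, and the Syn3 and Timp3 window 1 C/EBP and 1 SOX match (ACAATGG). A match is a description of letters and was not tested for binding.

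The libraries differed in depth and in sex-linked signal. Open calls numbered between 16980853 (P21) and 43794155 (P56 sample 2), and 477 barcodes occurred in more than 1 sample. Adult nuclei of most types had fewer open peaks, for example medians of 7195.5 and 6508.5 per endothelial nucleus in the P0 samples against 2099 in the P21 sample and 2441.5 and 2306 in the P56 samples. The peak over the Y-linked Uty start had 15.7 and 16.9 CPM at P0 and 15.6 in P56 sample 1, but 0 in the P21 sample and in P56 sample 2, while the Xist start had 5.36 and 4.82 CPM in those 2 and at most 0.187 in the others. The 8 members in Firre, an X-linked gene of a long noncoding RNA, followed the same split, with a summed CPM of 4.66 and 4.08 at P0, 229 at P21, 2.61 in P56 sample 1 and 205 in P56 sample 2. The 653 members off chromosomes X and M did not: they summed to 5400 and 5590 CPM at P0 and to 18100, 17100 and 20100 CPM in the P21 and the P56 samples. Thinned to 1000 open peaks per nucleus, the matrix gave 717 peaks by the same rule, 436 of them members. All 25 chromosome Y peaks together did not split the libraries in this way, with 127 and 197 CPM in the P0 samples and 76.1, 110 and 112 CPM in the adult samples. With only the 3 libraries that had open calls at the Uty start, the rule kept 648 peaks, of which 411 were members. Without chromosomes X and M and without members that have over 20% of their 31-base words elsewhere in the genome, 634 members were left.

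The names of the cell types were checked against markers. The summed CPM of the peaks at 22 proximal tubule markers in PCT was 2660 and 2730 at P0 and 3190 to 3960 in the adult, that of 5 loop of Henle markers in loop of Henle 271 and 300 against 1110 to 1340, that of 6 principal cell markers in principal cells 209 and 225 against 392 to 511, and that of 8 endothelial markers in endothelial cells 1780 and 1720 against 2330 to 2720. The 6 stromal markers in stroma 2 gave 530 and 524 CPM at P0 and 530 to 621 CPM in the adult. No marker of these lists was at 0 in its own type. In 2 of the 8 other types all adult samples had lower sums of the type's own markers than both P0 samples. In the cluster named nephron progenitors, 5 progenitor markers (Uncx, Cited1, Six2, Eya1 and Meox1) summed to 410 and 408 CPM at P0 and to 30.3, 79.2 and 84.1 CPM in the adult. There 5 loop of Henle markers went from 180 and 171 CPM to 316, 359 and 274 CPM. The 22 proximal tubule markers went from 446 and 460 CPM to 735, 713 and 1180 CPM (9 genes above, 2 below). Endothelial, stromal and podocyte markers were lower in all adult samples of this cluster. In stroma 1 the 6 stromal markers had 495 and 527 CPM at P0 and 211, 289 and 298 CPM in the adult, still above adult PCT (60.3, 50.8 and 50.2 CPM). The 22 proximal tubule markers went from 312 and 355 CPM to 1580, 477 and 1250 CPM in stroma 1. The 8 endothelial markers went from 315 and 300 CPM to 384, 501 and 457 CPM there. The 3 distal convoluted tubule markers went from 61.5 and 53.4 CPM to 167, 124 and 183 CPM, and the progenitor markers were lower in all adult samples. Adult nuclei of these 2 clusters are therefore named by their cluster only.

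Most members met the rule in the smallest number of types it allows. Of the 665, 477 (71.7%) met it in 3 types, 146 (22%) in 4 and 42 (6.32%) in all 5. The loop of Henle took part most often, with 589 members, followed by principal cells with 510, stroma 2 with 436, PCT with 401 and endothelial cells with 289. The most frequent combination was PCT, loop of Henle and principal cells, all tubule epithelium, with 166 members. Loop of Henle, principal cells and stroma 2 came next with 109, and 64 members combined these 3 with endothelial cells. The peaks that met the rule in a single type taken by itself numbered 4690 in PCT, 5763 in loop of Henle, 3013 in principal cells, 2282 in endothelial cells and 4231 in stroma 2, so members were between 8.55% (PCT) and 16.9% (principal cells) of them.

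The median member went from 9.88 to 26.5 CPM in PCT and from 7.01 to 26.6 CPM in loop of Henle. The medians were 6.74 and 19.8 CPM in principal cells, 3.98 and 11.3 CPM in endothelial cells and 3.46 and 14.3 CPM in stroma 2. On the log2(CPM + 1) scale the median difference, adult minus P0, was 1.15 in PCT, 1.69 in loop of Henle, 1.35 in principal cells, 1.28 in endothelial cells and 1.65 in stroma 2, where that of all peaks lay between -0.22 and -0.04 and that of eligible peaks between 0.06 and 0.26. These values use scaling to the total. TMM scaling raised the adult value relative to P0 by a log2 factor of 0.67 in PCT and 0.59 in loop of Henle, before the pseudocount, and moved the other 3 types by at most 0.09 in size, so that the rule kept 1228 peaks under it, 643 of them members.

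The adult value was not the higher one in every type. The adult CPM was under the P0 CPM in 41 members in PCT, 12 in loop of Henle, 8 in principal cells, 18 in endothelial cells and 4 in stroma 2. A member could also reach 2 times its P0 value at a low level. In endothelial cells 225 members did so with an adult CPM under 10, and in stroma 2 there were 181.

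Per sample, the level of a member was taken as the mean CPM over the 5 types. The median level was 7.55 and 7.62 in the P0 samples, 21.5 in the P21 sample and 21.2 and 25.1 in the P56 samples, and eligible peaks lay between 23 and 26.0 in the 5 samples. At P0 the median member was therefore below the median eligible peak in both samples, and in the adult it was close to it. Of the members, 655 (98.5%) had all 3 adult levels above both P0 levels, beside 43.6% of eligible peaks, from the contrast that chose them. At least 2 times the mean P0 level was reached by 523 members (78.6%) at P21, 499 (75.0%) in P56 sample 1 and 606 (91.1%) in P56 sample 2. Pooled over the nuclei of the 5 types, the share with the region open had a median over members of 5.1% at P0 and 12.6% in the adult. The mix of types differed between the stages. A P0 sample had 547 or 557 PCT nuclei and an adult sample 1551 to 2459, while stroma 2 had 1145 or 1309 and 206 to 535. The pooled shares are therefore not a change within a cell type.

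**Figure D1:**
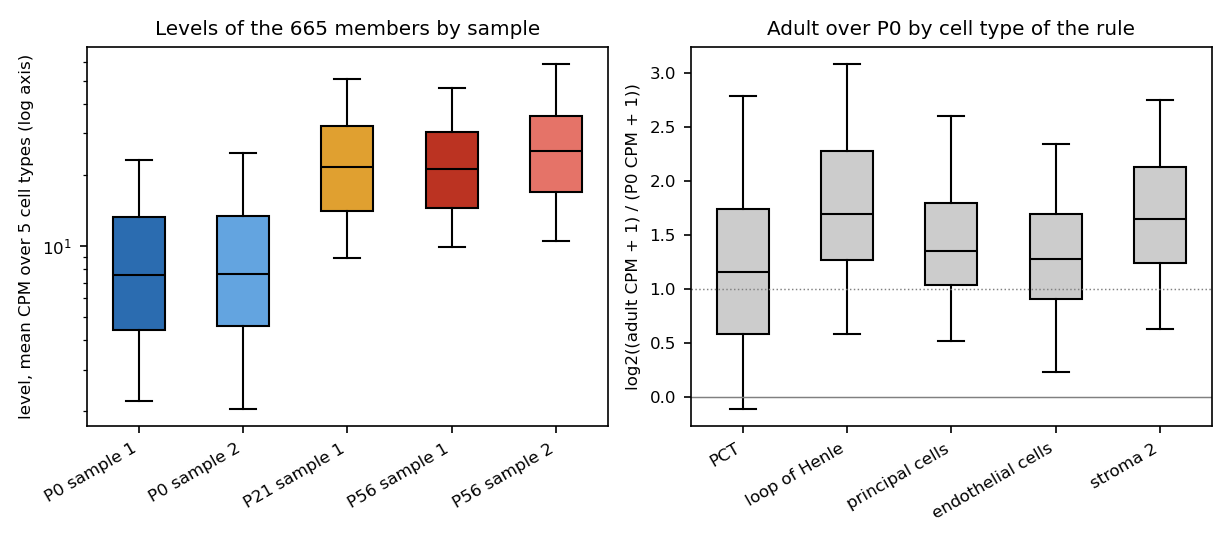
Left, level of the 665 members (mean CPM over the 5 cell types, log axis) in each of the 5 samples; right, log2((adult CPM + 1)/(P0 CPM + 1)) in each of the 5 types, with lines at 0 and 1. Boxes span the quartiles with the median as a line, and whiskers reach the 5th and 95th percentiles; the medians are 7.55 and 7.62 CPM at P0 and 21.5, 21.2 and 25.1 CPM in the adult samples.

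Within single cell types the separation was also frequent. All 3 adult samples were above both P0 samples for 529 members (79.5%) in PCT, where 36% of the peaks with a CPM of 10 or more at either stage showed this. In loop of Henle it was 621 members (93.4%) beside 40.7% of such peaks, and in principal cells 554 members (83.3%) beside 27.4%. In endothelial cells 550 members (82.7%) did so beside 25.9%, and in stroma 2 619 members (93.1%) beside 33%. The rule used the same contrast, so nothing is read from these counts.

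The 10 members whose adult and P0 levels overlapped were mostly on chromosome X. Of them, 6 lay in Firre and 1 in 4933407K13Rik, with 0.192 and 0.154 CPM at P0, 17.3 at P21, 0.125 in P56 sample 1 and 14.3 in P56 sample 2. A peak near Col19a1 (chr1:24612615-24613400) had 0.242 and 0.144 CPM at P0, 51.8 at P21, 0.212 in P56 sample 1 and 9.29 in P56 sample 2. In this peak 92.9% of the 31-base words also occur in chromosome M, and it is therefore uncertain from which copy its reads came. The other 2 were short peaks near Borcs6 (chr11:69062462-69062667; 3.71 and 5.24 CPM at P0, then 16.8, 5.11 and 11.4) and in Bcl9l (chr9:44486522-44486878; 6.55 and 7.42 CPM at P0, then 20.6, 6.91 and 21.7). In both, P56 sample 1 was the low adult sample.

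**Figure D2:**
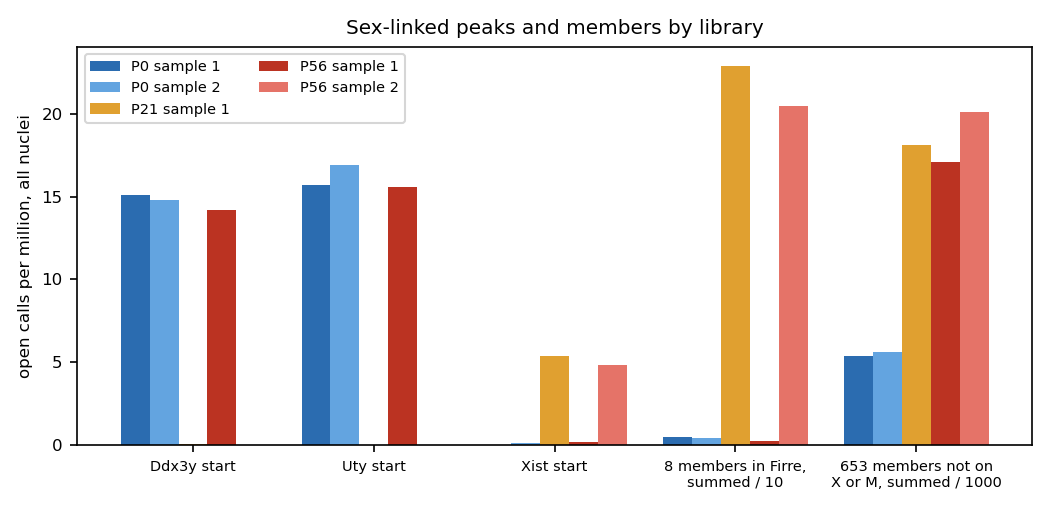
Bars give CPM over all nuclei of each of the 5 samples for the peaks over the Ddx3y, Uty and Xist starts, the 8 Firre members (sum divided by 10) and the 653 members off chromosomes X and M (sum divided by 1000). The first 4 sets split the adult samples, with P56 sample 1 beside the P0 samples, and in the last set all 3 adult samples stand above both P0 samples.

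Among the 10 members with the largest median log2 difference of those that met the rule in all 5 types, 5 were in Firre and 1 was the Col19a1 peak above, with adult means of 24.4 to 106 times the P0 means but with 0.195 to 1.27 CPM in P56 sample 1. The other 4 were higher than both P0 samples in all 3 adult samples. In an intron of Cry2, whose product represses CLOCK and ARNTL, the peak chr2:92423702-92424276 had 6.75 and 6.83 CPM at P0 and 37.1, 31.8 and 46.0 CPM in the P21 and the P56 samples, or 5.64 times the P0 mean. The difference was largest in loop of Henle and stroma 2, from 1.65 and 2.98 CPM to 33.3, 32.1 and 50.2 in loop of Henle and from 1.27 and 1.89 to 36.4, 31.9 and 47.0 in stroma 2, and was smaller in endothelial cells (15.7 and 13.7 against 49.2, 33.7 and 45.6) and in PCT (11.4 and 12.6 against 41, 28.7 and 45.6). No adult value overlapped a P0 value in any of these 4 types.

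The region near Zmynd8, a gene of a reader of acetylated histones, is distal (chr2:165938337-165938983). It had 2.65 and 3.47 CPM at P0 and 23.6, 28.2 and 34.2 CPM in the adult samples, 9.35 times the P0 mean. Of the 5 types of the rule, loop of Henle had its highest values, with 5.66 and 9.33 CPM at P0 and 51.8, 56 and 73.9 CPM in the adult. Over a start site of Lncpint, a p53-responsive long noncoding RNA, the peak chr6:31216279-31217211 had 6.62 and 8.99 CPM at P0 and 41.5, 32 and 64.1 CPM in the adult, 5.88 times the P0 mean. Of the 5 types of the rule, endothelial cells were highest here in each sample, with 13.4 and 17.4 CPM at P0 and 79.3, 41.0 and 94.4 CPM in the adult. In an intron of Zhx3, which encodes a zinc finger and homeobox repressor, the peak chr2:160805028-160805748 had 4.12 and 5.27 CPM at P0 and 24.4, 27 and 28.1 CPM in the adult, 5.65 times the P0 mean. In each of the 3 regions every adult sample stood above both P0 samples.

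**Figure D3:**
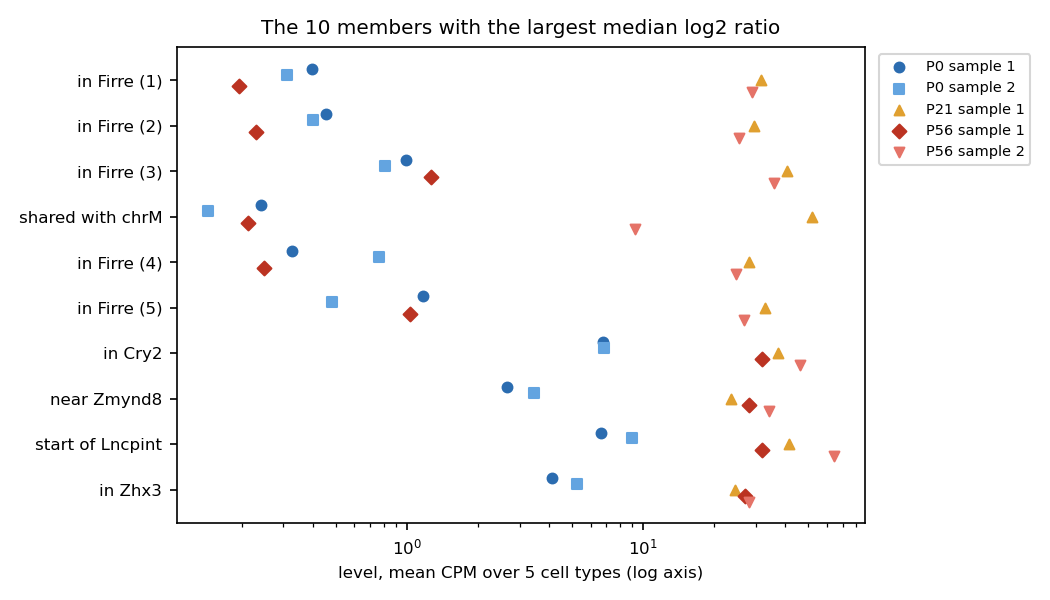
Level (mean CPM over the 5 cell types, log axis) of the 10 members with the largest median log2 difference; each row is a member and each point a sample. In the 5 Firre rows and the row shared with chromosome M, P56 sample 1 lies with the P0 samples, and in the Cry2, Zmynd8, Lncpint and Zhx3 rows the 3 adult samples lie above both P0 samples.

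Members formed groups. Of the 665, 196 lay in 73 groups with centres within 20 kb of each other and 469 stood alone. The groups described next are some of these and were picked after their values were seen. Their number of members was not the only basis, and some others with as many members are not described. Tns1, which codes for a focal adhesion protein, held 17 members, 15 of them in chr1:73998255-74075594. The mean level of these 15 was 9.49 and 9.43 CPM at P0 and 28.8, 26.3 and 32.6 CPM in the adult samples. They met the rule in 3 to 5 types and, apart from the peaks at its start sites, lay in introns with 1 exception over an exon. Zbtb16 had 7 members, Lncppara 5, and Nfic, which encodes a nuclear factor I protein, 4. The mean level over the 4 Nfic members was 8.3 and 8.37 CPM at P0 and 22.7, 21.2 and 29.8 CPM in the adult.

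Members near circadian clock genes were counted in the gene body and 10 kb upstream. The 19 listed genes held 401 peaks, 54 of them eligible and 15 of them members, or 27.8% of the eligible peaks where 4.13% of all eligible peaks were members. The lists were chosen with results of these data known, and no test was made. Members were found at 7 of the 19 genes: Nr1d1 (4), Dbp (3), Cry2, Hlf and Per2 (2 each), and Per1 and Rora (1 each). None was found at Arntl (31 peaks, 3 of them eligible), Clock (11 and 1), Npas2 (38 and 1), Per3 (8 and 1), Cry1 (10 and 1) or Tef (8 and 2) in these windows. The first 3 encode the activators of the loop. With so few eligible peaks, nothing is read from these absences. Outside the Tef window, 2 members were nearest to its start, at 15697 bp and 18125 bp, with 15.3 and 15.1 CPM at P0 and 45.4, 39.2 and 54 CPM in the adult, and 3.19 and 3.08 CPM at P0 and 21, 14.4 and 24.6 CPM in the adult (chr15:81836259-81837022 and chr15:81838726-81839411). The Nr1d1 product, REV-ERBα, represses Arntl. Its intronic member chr11:98773040-98773489 had 4.27 and 4.4 CPM at P0 and 18.2, 17.2 and 30.9 CPM in the adult, 5.10 times the P0 mean. The 4 members of Nr1d1 averaged 21.8 and 23.4 CPM at P0 and 56, 47 and 74 CPM in the adult. In PCT the intronic member had 5.69 and 7.47 CPM at P0 and 4.93, 4.09 and 10.9 CPM in the adult, where the groups overlapped.

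The Dbp gene codes for an activator that binds the D-box. Its 3 members and a further peak next to them (chr7:45706114-45712915) averaged 8.67 and 9.78 CPM at P0 and 27.3, 18.8 and 34.4 CPM in the adult. A member in an intron of Rora, whose product competes with REV-ERBα, had 8.37 and 8.27 CPM at P0 and 24.2, 22.7 and 19.1 CPM in the adult (chr9:69092109-69092736). Over the start of Per1, the level was 18.9 and 20.2 CPM at P0 and 50.8, 30.5 and 59.3 CPM in the adult. At Cry2, Nr1d1, Dbp and Per1 the lowest of these adult values was that of P56 sample 1, and at Rora that of P56 sample 2. P56 sample 1 was also the lowest adult sample over all members. Their summed CPM over all nuclei was 18500 at P21, 17100 in P56 sample 1 and 20500 in P56 sample 2. The size of the gap at clock genes was not compared with that over all members. The time of day of each sample is not given, and its part in these values was not tested.

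Glucocorticoid-induced genes held 18 members among 51 eligible and 248 peaks, or 35.3% of the eligible ones. They were at 5 of the 19 listed genes: Zbtb16 (7), Klf9 (5), Fkbp5 (4), Per1 and Tsc22d3 (1 each). None was at Sgk1 (1 eligible peak), Dusp1 (3), Hif3a (3), Mt1 (2), Pdk4 (1), Cdkn1a (2) or any other listed gene in these windows. Dusp1 had a member when start sites within 5 kb were counted. The share therefore rests mostly on Zbtb16, Klf9 and Fkbp5 and is not a trait of the whole list. Zbtb16 encodes the repressor PLZF. Its intronic member chr9:48723370-48724239 had 3.41 and 2.58 CPM at P0 and 29.7, 48.2 and 48.4 CPM in the adult, 14.0 times the P0 mean. Among the 5 types the adult values were higher in endothelial cells (5.39 and 3.62 CPM at P0, 38.1, 85.8 and 92.1 in the adult) and stroma 2 (4.32 and 2.67, then 63.7, 79.3 and 84.2) than in the other 3, and lowest in PCT (1.73 and 0.897, then 2.08, 6.23 and 2.02). The other 2 named Zbtb16 members, chr9:48733950-48734575 and chr9:48737423-48738056, had 3.83 and 3.65 CPM at P0 against 21.1, 24.2 and 26.2 CPM, and 11 and 10 CPM against 51.9, 47.2 and 64.4 CPM. Over all 6 grouped Zbtb16 members (chr9:48707076-48745816) the mean level was 7.22 and 7.04 CPM at P0 and 29.8, 32.2 and 39.6 CPM in the adult. The Fkbp5 product is a co-chaperone of the glucocorticoid receptor, and its start-site member (chr17:28517520-28518650) had 18.1 and 20.8 CPM at P0 and 57, 46.1 and 68.9 CPM in the adult.

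Thyroid hormone action shared its main gene with the previous list. The 10 listed genes had 18 eligible peaks and 6 members, 5 of them at Klf9, a Krüppel-like factor induced by both hormones, and 1 at Thra, which encodes a thyroid hormone receptor. The 5 Klf9 members averaged 17.8 and 17.5 CPM at P0 and 42.2, 36.4 and 44.6 CPM in the adult. In PCT the named Klf9 member chr19:23133055-23133917 had pooled values of 43.7 CPM at P0 and 47.8 CPM in the adult, and in loop of Henle 24.1 and 67.8 CPM. Its mean level over the 5 types was 15.5 and 16.1 CPM at P0 and 33.4, 27.1 and 33.4 CPM in the adult.

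The remaining lists held between 0 and 6 members. The AP-1 and immediate early genes had 6 (3 at Junb, and 1 each at Ier3, Nr4a1 and Zfp36) of 54 eligible peaks, or 11.1%. The member over the start of Nr4a1, an orphan nuclear receptor, had 7.27 and 7.85 CPM at P0 and 17.8, 12.2 and 25.6 CPM in the adult. The MHC class I and interferon genes had 3 of 32 (9.38%), at Irf2 and H2-D1, and the 2 at H2-D1 have 27.2% and 21.8% of their words elsewhere in the genome. The Irf2 member had 4.67 and 4.82 CPM at P0 and 17.4, 20.1 and 15.9 CPM in the adult. Hypoxia response genes had 2 of 26 (7.69%), in Hk1, a hexokinase gene (1.89 and 1.45 CPM at P0, then 8.9, 9.86 and 10.5), and near Pdk1, a gene of a pyruvate dehydrogenase kinase (7.41 and 6.92 CPM, then 13.2, 20 and 19.5). No member was found among the 31 eligible peaks of mitochondrial energy genes, 17 of Nrf2 targets, 13 of p53 targets, 16 of cholesterol and lipid synthesis genes and 13 of heat shock genes. In total 44 different members lay in the 11 lists.

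**Figure D4:**
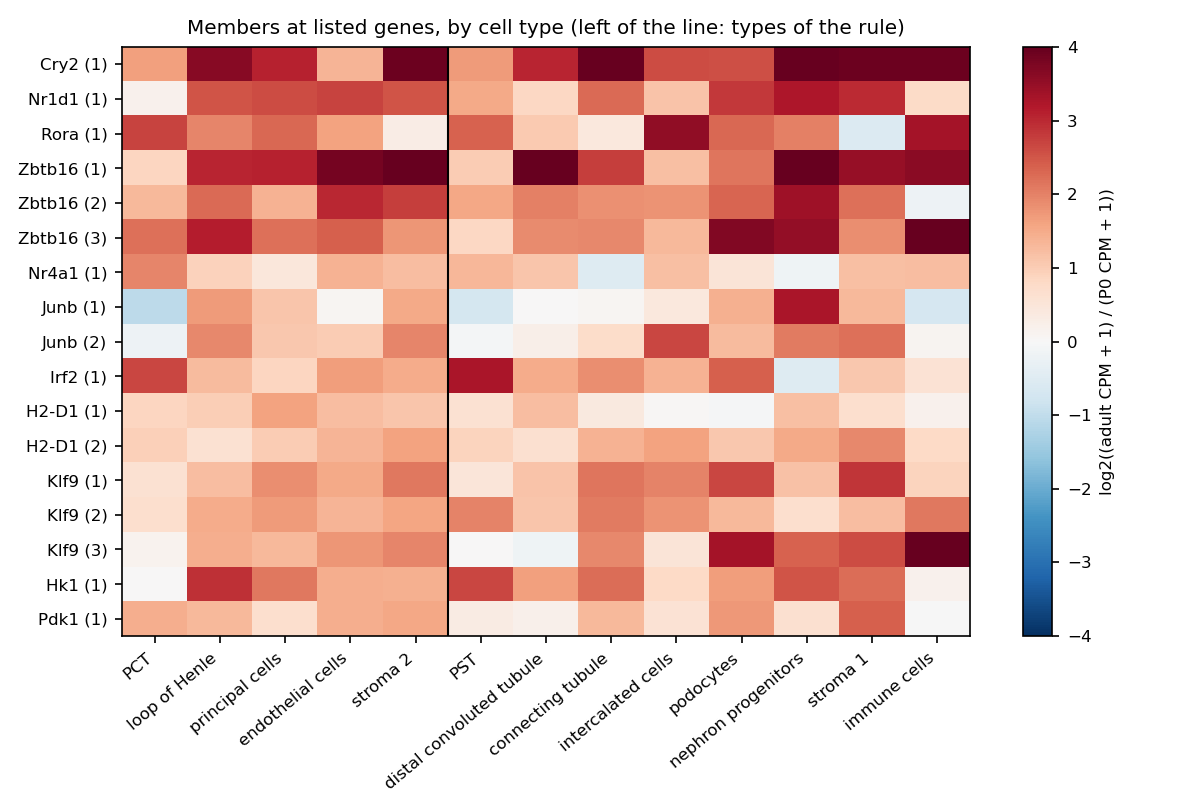
Heat map of log2((adult CPM + 1)/(P0 CPM + 1)), coloured from -4 to 4, for the named members of the gene lists (rows) in the 5 cell types of the rule, left of the line, and in the 8 others. The Cry2 row and the first Zbtb16 row are above 0 in all 13 types, and the first Junb row is below 0 in PCT, PST and immune cells.

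Markers of single cell types held 4 members. The proximal tubule list had 0 among 283 peaks, 7 of which were eligible. The distal convoluted tubule gene Slc12a3, which encodes the thiazide-sensitive sodium chloride cotransporter, held 3, and Umod, which encodes uromodulin of the loop of Henle, held 1. The summed CPM of the 3 distal convoluted tubule markers, these members included, was 124 and 123 at P0 and 200, 240 and 262 in the adult in loop of Henle, 153 and 149 against 199, 228 and 237 in PCT, and 71.9 and 70.2 against 127, 120 and 119 in endothelial cells. In loop of Henle and in PCT 1 of the 3 genes had all adult samples above both P0 samples and the other 2 had them below, and in endothelial cells 1 was above and 0 below. Markers of podocytes also had the higher sums in adult endothelial cells, with 560 and 536 CPM at P0 and 670, 744 and 838 CPM in the adult (2 of 5 genes above, 1 below), as did those of loop of Henle, with 63.7 and 64.4 CPM and then 117, 82.1 and 95.2 CPM (3 of 5 above, 0 below). In stroma 2 the distal convoluted tubule markers had 58.8 and 53.9 CPM at P0 and 99, 63.8 and 105 CPM in the adult, and the podocyte markers 332 and 328 CPM and then 409, 362 and 458 CPM. The 22 proximal tubule markers overlapped between the stages in loop of Henle (627 and 615 CPM at P0, then 797, 396 and 468), principal cells (483 and 459, then 968, 430 and 847) and endothelial cells (443 and 473, then 804, 407 and 522), but not in stroma 2 (396 and 414, then 731, 461 and 755), where 12 of the 22 genes had all adult samples above. None of these markers was at 0 in any of the 5 types. The part of nuclei or free DNA of other types in the members' values was not tested.

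Of the members, 106 (15.9%) overlapped a start site, where 67.3% of eligible peaks and 7.43% of all peaks did. By the element order used by the authors, 46.8% of members were in introns (15.3% of eligible peaks, 46.7% of all), 23.8% touched an exon (63.1%, 14.1%), 18.2% were distal (8.66%, 31.6%) and 6.47% lay in promoters 5 kb upstream of a start (3.46%, 4.92%). The 5'-UTR and 3'-UTR held 3.01% and 1.8% of members. The median width was 816 bp, the GC content 52.0% and the number of CG dinucleotides in the central 300 bp 4, and the medians of eligible peaks were 1020 bp, 61.0% and 19. Members were spread over 21 chromosomes, with 69 on chromosome 11 and 51 on chromosome 1, and their median distance to a coding start was 10289 bp, against 20570 bp over all peaks.

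Sequence letters were counted in the central 300 bp, on both strands, for 28 motifs. The nuclear receptor half-site AGGTCA occurred in 216 members (32.5%), in 15.2% of eligible peaks and in 21.1% of all peaks. The nuclear factor I half-site TTGGCA occurred in 178 members (26.8%), against 12.5% and 17.9%. The D-box TTANGTAA was in 44 members (6.62%), against 1.54% of eligible and 3.12% of all peaks, and the E-box CACGTG was in 63 members (9.47%), against 7.93% and 4.62%. The steroid receptor core ACANNNTGT was in 84 members (12.6%), against 4.44% and 9.97%, and AP-1 TGANTCA in 83 (12.5%), against 5.98% and 10.5%. The forkhead motif TGTTTAC was in 7.22% of members, against 2.93% and 5.09%. Each of these 7 shares was higher in the members than in either set, and none was tested. Over whole peaks the E-box share of members was below that of eligible peaks, at 20.2% and 22.9%, and the other 6 shares of members stayed above both sets. A wider peak holds more letters, and the median width was 816 bp in members, 414 bp in all peaks and 1020 bp in eligible peaks. The whole-peak shares of members and of all peaks are therefore not on a like basis.

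Base composition differed between the sets, with a median GC content of 52.0% in members, 61.0% in eligible peaks and 46.7% in all peaks. Its part in the motif shares above and below was not tested. Some motifs had lower shares in members than in eligible peaks. SP/KLF GGGCGGGG was in 3.61% of members, 20.9% of eligible and 3% of all peaks, TFAP2 GCCNNNGGC in 15.9%, 26.3% and 8.99%, and YY1 AAGATGGCG in no member, 2.12% and 0.233%. CTCF AGGGGGC (4.36% of members, 12.5% of eligible and 4.79% of all peaks), ETS CCGGAAGT (0.301%, 4.6% and 0.602%), NRF1 GCGCATGCG (0.301%, 1.79% and 0.174%) and CRE TGACGTCA (1.05%, 1.9% and 0.379%) were also below eligible peaks. Others were above both sets. These were C/EBP TTGCNNAA (14.1%, 8.18% and 13.2%), STAT TTCNNNGAA (11.4%, 6.71% and 10.4%), TEAD ACATTCC (6.92%, 4.09% and 6.06%), HNF1 GTTAATNAT (1.95%, 1.17% and 1.49%) and NF-kB GGGANTTTC (1.5%, 1.17% and 1.22%). So were motifs that share letters with those above: ROR and Rev-erb TAGGTCA (3.31%, 1.81% and 3.18%) and the estrogen-related receptor motif TCAAGGTCA (1.95%, 0.639% and 0.853%) contain the half-site, direct repeat 1 GGTCAAAGG (0.902%, 0.385% and 0.493%) shares letters with it, and the MAF motif TGCTGANTC (1.8%, 1.1% and 1.73%) overlaps AP-1. Between the sets lay IRF AAANNGAAA (13.5%, 7.48% and 14.3%), HNF4 CAAAGTCCA (0.752%, 0.465% and 0.809%), the GATA factor motif AGATAAG (3.01%, 1.73% and 3.96%), RUNX TGTGGTT (5.11%, 3.62% and 6.97%) and SOX ACAATGG (3.16%, 2.13% and 4.05%). The window, the background sets and the strand search were the same for all 28.

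The 8 cell types that the rule did not use gave the values that could be tested, with edgeR's quasi-likelihood test and Benjamini-Hochberg adjustment over all peaks tested in a type. They come from the same 5 libraries, so anything that differs between the libraries is shared with the types of the rule. Low counts limited which members could be tested, and a member could enter through its adult signal alone, which favours a higher call. In nephron progenitors the 5 members called in the most other types had a P0 CPM of 1.71 to 19.6, too low to pass the filter by itself. All tested peaks also include those that entered through P0 signal, so the shares below are not on a like basis. Counts with no filter follow further below. In the straight proximal tubule (PST) 260 of 589 tested members were called higher in the adult and 0 lower, beside 9.04% and 6.99% of all tested peaks. In the distal convoluted tubule 82 of 330 were higher and 0 lower, beside 2.6% and 1.13%, and in the connecting tubule 301 of 484 were higher and 2 lower, beside 10.4% and 12.2%. In podocytes 97 of 177 were higher and 0 lower, beside 6.07% and 3.52%. In nephron progenitors 207 of 225 were higher and 2 lower, beside 19.2% and 20.4%, and in stroma 1 322 of 360 were higher and 1 lower, beside 17% and 20.8%. The intercalated cells had 11 of 327 higher and 0 lower, beside 0.108% and 0%, and the immune cells 3 of 43 and 0, beside 0.0995% and 0.0497%.

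Markers of other types moved with several of these counts. In the connecting tubule the 3 distal convoluted tubule markers summed to 129 and 121 CPM at P0 and to 574, 443 and 621 CPM in the adult, with all adult samples above both P0 samples in 3 of 3 genes. The connecting tubule's own 3 markers went from 108 and 108 CPM to 324, 267 and 303 CPM. In podocytes the 22 proximal tubule markers had 415 and 347 CPM at P0 and 877, 683 and 1220 CPM in the adult (19 of 22 genes above), while the 5 podocyte markers had 1020 and 1090 CPM and then 1370, 1170 and 1120 CPM. The 5 loop of Henle markers went from 156 and 150 CPM to 250, 244 and 303 CPM in the connecting tubule, and from 234 and 224 CPM to 575, 492 and 486 CPM in the distal convoluted tubule. The proximal tubule markers were also higher in all adult samples of the distal convoluted tubule (403 and 445 CPM, then 486, 712 and 738) and of intercalated cells (481 and 470, then 785, 568 and 977). In immune cells they went from 464 and 492 CPM to 537, 697 and 1530 CPM. The part of these markers' cell types in the calls was not tested.

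Beside the counts of 0 lower calls, at an unadjusted p under 0.05 edgeR gave 1 lower member in PST, beside 13.3% of all tested peaks, and 1 in immune cells (4.56%), and 0 in the distal convoluted tubule (6.16%), intercalated cells (4.83%) and podocytes (9.04%), and DESeq2 called 0 lower in these 5 types. With no filter, so that nearly every member entered, the calls higher were 490 of 665 in PST, beside 5.93% of all peaks, 163 in the distal convoluted tubule (0.384%), 305 in the connecting tubule (1.27%), 78 in intercalated cells (0.0834%), 105 in podocytes (0.324%), 325 in nephron progenitors (2.27%), 385 in stroma 1 (2.01%) and 0 of 664 in immune cells (0.000594%). The calls lower were then 14 in nephron progenitors, beside 18.2% of all peaks, 10 in stroma 1 (10.1%) and 0 in PST (0.907%), the distal convoluted tubule (0.0899%), the connecting tubule (1.81%), intercalated cells (0.00391%), podocytes (2.17%) and immune cells (0.000594%). At an unadjusted p under 0.05 by edgeR there were 4 lower in podocytes (26870 of 242727 peaks), 2 in immune cells (2899 of 168274) and 0 in the other 4 of these types. Over all peaks these 4 had 12133 of 280452 lower in PST, 11375 of 232546 in the distal convoluted tubule, 22810 of 250227 in the connecting tubule and 3744 of 230305 in intercalated cells. With the filter, the median log2 fold change over tested members was 1.0 in PST, 0.79 in the distal convoluted tubule, 1.3 in the connecting tubule, 0.79 in intercalated cells, 1.16 in podocytes, 2.28 in nephron progenitors, 2.09 in stroma 1 and 0.43 in immune cells. That of all tested peaks lay between -0.04 and 0.03. With no filter the median of all peaks was 0.58 in PST, 0.32 in the distal convoluted tubule, 0.49 in intercalated cells and 0.29 in immune cells. It was -0.52 in the connecting tubule, -1.05 in podocytes, -2.11 in nephron progenitors and -1.21 in stroma 1, so these fits were not centred on 0. The medians of members then lay between 1.11 (podocytes) and 1.98 (immune cells). Adult podocyte sums rest on 39 to 157 nuclei per sample, those of nephron progenitors on 52 to 90, those of stroma 1 on 90 to 107, and those of immune cells on 45 to 101.

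**Figure D5:**
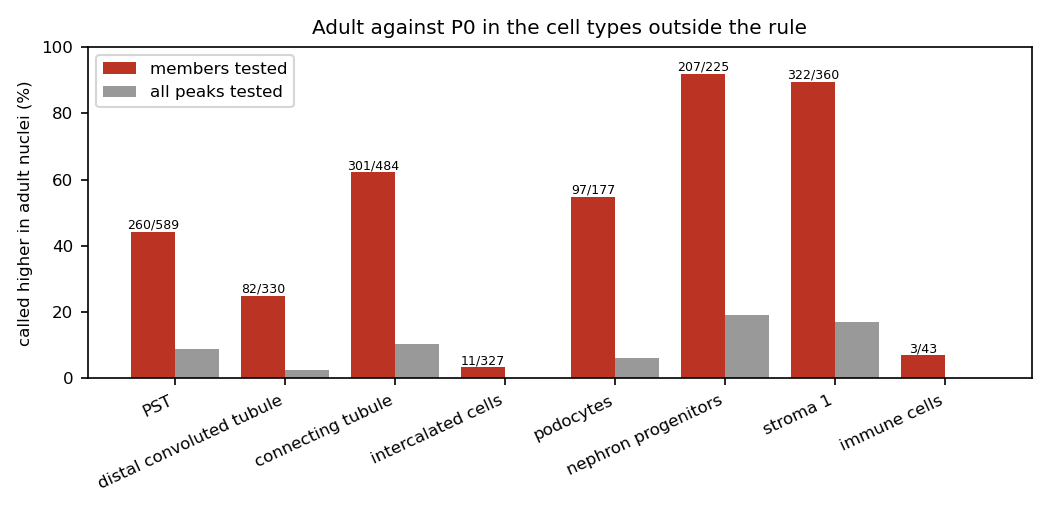
Members called higher in the adult by edgeR in each of the 8 other cell types, as a percent of the members tested there, beside the percent of all tested peaks called higher. In each type the member share is the larger one, and in intercalated and immune cells both are low.

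Over the 8 types, 557 members (83.8%) were called higher in at least 1, 374 in at least 2, 217 in at least 3 and 32 in at least 5, while 5 were called lower in at least 1, and 649 had been tested in at least 1. Of the 58104 peaks tested in at least 1 type, 17.7% were called higher in at least 1, 2.78% in at least 2, 0.747% in at least 3 and 0.0585% in at least 5, and 16.8% were called lower in at least 1. Without nephron progenitors and stroma 1, whose adult nuclei had low sums of their own markers, 463 (69.6%) were called higher in at least 1 of the other 6 types, of 639 tested there, beside 12.9% of all peaks tested there. All 8 Firre members were among the calls, and none of them was tested with only the 3 libraries that had open calls at the Uty start. Outside Firre, 549 of 657 members were called in at least 1 type with all libraries. With those 3, 1 adult sample stands for its stage. The median log2 fold change of all tested members was then 1.02 in PST, 1.4 in the connecting tubule and 1.11 in podocytes. That of all tested peaks was -0.02, -0.02 and -0.08 there. The lowest median of members was 0.2, in immune cells, beside -0.01. With 1 of the P0 samples left out, 1 P0 sample stands for its stage, and PST had no calls left, also over all peaks. The median log2 fold change of tested members in PST was then 1.14 (without P0 sample 1) and 1.18 (without P0 sample 2). That of all tested peaks there was 0.13 and 0.15. In the distal convoluted tubule 23 of 515 members were called without P0 sample 1, beside 108 of 22633 peaks, and 8 of 514 without P0 sample 2, beside 25 of 23052. In podocytes these were 31 of 223 beside 154 of 12748 peaks and 35 of 222 beside 184 of 12860, and in stroma 1 128 of 388 beside 509 of 14336 and 145 of 389 beside 690 of 14451. Without P56 sample 1, stroma 1 had 493 of 576 members beside 7856 of 48217 peaks. In the connecting tubule 181 of 546 members were called without P0 sample 1, beside 1064 of 30556 peaks. The calls in intercalated cells were 0 of 490 without P0 sample 1 (0 of 23678 peaks), 1 of 492 without P0 sample 2 (2 of 23477), 0 of 354 without the P21 sample (0 of 17624) and 65 of 280 without P56 sample 1 (168 of 12889). Nephron progenitors had 462 of 596 without the P21 sample (10043 of 80886 peaks), 381 of 569 without P56 sample 1 (7421 of 78251) and 352 of 569 without P56 sample 2 (7789 of 83051). Immune cells had 10 of 58 without P56 sample 1 (66 of 8081 peaks) and 0 or 1 without any other sample.

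The Cry2 member was called in 5 of 7 types tested. In these types its P0 values were too low for the count filter, so it entered each test through its adult signal alone. This also holds for the Zbtb16 member and the intronic Nr1d1 member below. In the connecting tubule it had 1.14 and 1.26 CPM at P0 and 46.2, 19.1 and 41.1 CPM in the adult, a log2 fold change of 4.43 ± 0.66 (SE) at an adjusted p of 6.38e-05 by edgeR. In podocytes it had 1.55 and 6.54 CPM at P0 and 41.5, 29.5 and 28.9 CPM in the adult (2.79 ± 0.5, adjusted p = 0.000146), and in the distal convoluted tubule 7.9 and 2.46 CPM and then 43.2, 30.8 and 56.5 CPM (2.91 ± 0.53, adjusted p = 0.00286). The adult samples stood above both P0 samples in all 3. It was also called by edgeR in the clusters nephron progenitors (4.34 ± 0.46, adjusted p = 4.26e-19) and stroma 1 (4.27 ± 0.47, adjusted p = 7.75e-13). Adult nuclei of these 2 clusters had lower sums of their own markers than P0 nuclei. Contrasts in these clusters may therefore be between cell types as well as stages. The Zbtb16 member chr9:48723370-48724239 had 3.42 and 2.52 CPM at P0 and 16.3, 13.1 and 35.7 CPM in the adult in the connecting tubule (2.67 ± 0.61, adjusted p = 0.0025), with no overlap. The intronic Nr1d1 member was called by edgeR in nephron progenitors (3.29 ± 0.44, adjusted p = 1.39e-12), with the limit given above for this cluster. It was also called in the connecting tubule, from 10.2 and 11.3 CPM to 54.4, 34.2 and 68.3 CPM (2.02 ± 0.35, adjusted p = 0.000277).

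The 2 members called in 7 other types and 3 of the 4 called in 6, those with the largest median log2 fold change, lay in or near different genes. The tied member left out is in Cdk8, a gene of a kinase of the Mediator complex. A peak over an exon of Lars2, a mitochondrial leucyl-tRNA synthetase gene (chr9:123461623-123462314), was called in 7 of 8 types and had levels of 15 and 18 CPM at P0 and 44.3, 55.5 and 55.9 CPM in the adult, but 34.7% of its words occur elsewhere in the genome. A distal peak 68390 bp from the Axin2 start (chr11:109011745-109012277) was also called in 7 of 8, with 20.5 and 24.6 CPM at P0 and 66, 76.5 and 64.6 CPM in the adult. Of its words 3.8% occur elsewhere in the assembly, and whether it resembles ribosomal RNA sequence that the assembly lacks was not tested. The Bcar1 member (chr8:111726240-111727116), in a gene of a Cas family adaptor protein, was called in 6 of 7 types and had levels of 13.5 and 13.3 CPM at P0 and 35, 41.5 and 48.8 CPM in the adult. It was the only one of the 5 called in intercalated cells, from 10.2 and 10.8 CPM to 41.7, 50.8 and 62.2 CPM (2.19 ± 0.4, adjusted p = 0.0139 by edgeR). Its P0 values there were too low for the count filter, so it entered that test through its adult signal alone.

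The member shared by introns of Syn3 and Timp3 (chr10:86339473-86340572), where Timp3 encodes an inhibitor of metalloproteinases of the matrix, was called in 6 of 7. Its level was 12.2 and 10.7 CPM at P0 and 44.6, 46.7 and 41.1 CPM in the adult. In PST its CPM went from 6.06 and 2.01 to 18.7, 29.8 and 30.8 (2.76 ± 0.47, adjusted p = 0.00267 by edgeR), with no overlap. These P0 values were too low for the count filter, so this member entered the PST test through its adult signal alone. The peak over the 3'-UTR of Dclre1b, a gene of a DNA repair nuclease (chr3:103801704-103802804), was called in 6 of 8. In podocytes it went from 2.33 and 3.82 CPM to 15.6, 29.5 and 28.9 CPM (2.97 ± 0.56, adjusted p = 0.000251 by edgeR). It also entered that test through its adult signal alone, since its P0 values there were too low for the count filter. Its level over the 5 types of the rule went from 16.5 and 17 to 48.3, 55.2 and 55.7 CPM.

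With the filter on low counts, the exceptions were 5 members called lower in another type. In the connecting tubule the peak over the start of Cxcl10, a chemokine gene, had 12.5 and 16.4 CPM at P0 and 2.72, 6.03 and 6.65 CPM in the adult (log2 fold change -1.56 ± 0.53, adjusted p = 0.0343 by edgeR), with no overlap. The peak near Cdkn2aipnl had 18.2 and 18.9 CPM there and then 5.44, 13.1 and 7.86 CPM (-1.26 ± 0.45, adjusted p = 0.044). The other 3 were in Spata13 and over the start of Gm16253 in nephron progenitors and in Pxn, which codes for paxillin, in stroma 1. In the Gm16253 and Pxn peaks 1 adult sample was as high as P0, with 46.1 CPM against 44.6 and 45.8, and 43.7 CPM against 39.5 and 43.5.

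The rule pooled the P21 and P56 open calls, so it did not fix their order, but both entered the choice of members, of which 604 were kept with P56 alone and 427 with P21 alone. The values of the 2 ages are therefore not independent of the rule and are read as a description. The level at P21 was above both P56 samples in 106 members, below both in 287 and between them in 272, and of eligible peaks 25.3% were above and 30.3% below. P21 has 1 sample, which was assumed to vary like the other groups and limits what the test can call. In PCT 3 of 659 tested members were called higher at P56 and 1 lower, beside 0.193% and 0.107% of all tested peaks. In loop of Henle 0 of 662 were higher and 1 lower, beside 0.0169% and 0.0275%, and in principal cells 0 of 646 were higher and 1 lower, beside 0.00185% and 0.00371%. In endothelial cells (585 tested) and stroma 2 (632 tested) there were 0 calls either way, beside 0% and 0% of all peaks in each. At an unadjusted p under 0.05, edgeR had 14 members higher and 34 lower at P56 in endothelial cells, beside 3.74% and 2.02% of all tested peaks, and 12 and 12 in stroma 2, beside 2.67% and 1.81%. It had 53 higher and 16 lower in loop of Henle, beside 3.87% and 3.74%, and 48 and 17 in principal cells, beside 4.66% and 2.12%. DESeq2 called 0 members in each of the 5 types.

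The lower call was the same peak in all 3 types, the Col19a1 peak with chromosome M sequence, from 57.6 CPM at P21 to 0.0 and 10.3 CPM in the P56 samples in loop of Henle. The 3 higher calls in PCT were in Klhl3, which encodes a ubiquitin ligase adaptor of distal salt transport, over the start of Micall1 and in Kifc3. The Klhl3 peak had 1.98 and 1.2 CPM at P0, 3.29 in the P21 sample and 9.2 and 17.2 CPM in the P56 samples. The Micall1 peak had 2.23 and 2.09 CPM at P0, 1.53 in the P21 sample and 6.79 and 7.75 in the P56 samples, and the Kifc3 peak 0.742 and 0.897, 2.08 and 5.3 and 21.7. In these 3, both P56 samples were above the P21 sample, and since 1 P21 library and values that entered the rule gave these calls, they support no difference between the ages. Leaving out a P56 sample raised the number of members called in at least 1 type from 4 to 200 (sample 1) and 209 (sample 2). Most of these calls were in PCT, with 168 members higher and 10 lower at P56 without sample 1, beside 7.17% and 4.13% of all tested peaks. Without sample 2 there were 68 higher and 131 lower, beside 8.92% and 7.08%, so the more frequent direction turned with the sample left out.

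The members nearest the threshold were close to the peaks just outside it. The third largest ratio was 2.002 for the peak near Pllp (chr8:94702749-94704557) and 2.003 for the one in Fto (chr8:91379004-91379790), both members. It was 1.999 near Arid1b (chr17:4974750-4975359) and 1.998 near B4galt5 (chr2:167383591-167384371), both outside.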

How the data were processed

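Open chromatin was measured by snATAC-seq in 2 P0, 1 P21 and 2 P56 samples of whole mouse kidney. The authors aligned reads to mm10 (GRCm38) with Cell Ranger ATAC 1.1.0 (version per the submitters' processing notes), clustered nuclei with SnapATAC and Harmony, called peaks with MACS2 for each cell type over the nuclei of all samples and joined overlapping peaks. The deposited counts are a binarized cell-by-peak matrix made by the authors, with 1 for a fragment in a peak, so fragment depth within a peak is lost and values are not scaled for depth. The 89197 entries stored as 0 were read as closed. Open calls were summed per sample and cell type and scaled to CPM, and log2 ratios used a pseudocount of 1. Medians are given as a description, and precision is limited by the open calls behind a sum, which fall to few in rare types.

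The adult and P0 sums of the 8 other types, and P56 and P21 in the types of the rule, were tested with edgeR 4.0.16 and limma 3.58.1 in R 4.3.3 (quasi-likelihood test after TMM scaling; filterByExpr set to a count of 10 or more and a total of 15 or more; Benjamini-Hochberg threshold 0.05; at least 20 nuclei per sum), with DESeq2 1.42.0 as an alternative. Standard errors were derived from the F statistic. Nothing in the labels says that samples came from separate animals, so p-values measure the spread between these samples. Other steps used Python 3.11.15, numpy 2.4.6, pandas 2.3.3, scipy 1.17.1 and matplotlib 3.10.9. The test was checked on simulated data, where it recovered a minority of the 2-fold changes, so a low number of calls does not show that few peaks differ. Of the groups of members, 1 is not reported here.

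Genes and elements come from GENCODE M21, where exon went before 5'-UTR and 3'-UTR, these before intron, then promoter (5 kb) and distal. The peak on chromosome M runs past the end of that chromosome in the reference (16299 bp). The members and lists were chosen with earlier results of these data known. Named were the 10 members with the largest median log2 ratio among those meeting the rule in the most types, up to 3 members per gene list with the largest ratio, the 5 called in the most other types and the 2 members and 2 other peaks nearest the threshold. Sequences are of 6 members with the largest ratio or called in the most other types, after some were left out. Members on chromosomes X and M were left out. So were those with the largest ratio that had 20% or more of their words elsewhere, and those called in the most types that had any. Other peaks named (Tns1, Per1, Fkbp5, the overlapping members and the exceptions) were chosen after their values were seen. Nuclei of 2 clusters outside the 13 types and the scRNA-seq and embedding files were not used, and doublets were not searched for.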

Additional observations from a re-analysis of the deposited data

Results flagged for a closer look

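Some members lay on opposite sides in different cell types: all 3 adult samples lay below both P0 samples in 1 type and above both in at least 1 other. The difference between the types was not tested, and members with few open calls meet this by counting error alone more easily. There were 22 such members in PCT (3.31%, beside 11.8% of eligible peaks), 3 in loop of Henle (0.451% and 8.78%), 2 in principal cells (0.301% and 5.34%), 6 in endothelial cells (0.902% and 7.33%) and 0 in stroma 2 (5.1% of eligible peaks). In the types that the rule did not use there were 16 in PST, 7 in the distal convoluted tubule, 5 in the connecting tubule, 4 in intercalated cells, 5 in podocytes, 6 in nephron progenitors, 4 in stroma 1 and 13 in immune cells, between 0.602% and 2.41% of members, where eligible peaks had between 5.12% and 10.7%. The rule favours higher adult values, so a lower share in the members is fixed in part by their choice. In PCT the peak in Cd82 (chr2:93445074-93445926), a tetraspanin gene, had 21 and 19.7 CPM at P0 and 6.79, 12.5 and 8.45 CPM in the adult, and the adult samples were above both P0 samples in 5 other types. The peak in Gm49797 (chr17:3218432-3219434) had 8.91 and 8.67 CPM at P0 and 1.64, 4.28 and 1.85 CPM in the adult in PCT and was above in 8 other types. In principal cells the Pitpnc1 peak (chr11:107248799-107249415) had 6.35 and 6.75 CPM at P0 and 5.52, 1.17 and 0.704 CPM in the adult, with 9 types above.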

How the results depend on the processing

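The number of members, 665, became 1228 under TMM scaling, 2021 at a ratio of 1.5, 227 at a ratio of 3, 1941 at an adult CPM of 5, 218 at 20, 2782 with 2 or more types, 188 with 4 or more and 42 with all 5. It was 546 to 940 with each sample left out. It was within 1.5 times of 665 when PCT and PST were summed (662), with the mean of the samples (678), P21 alone (867), P56 alone (718) or thinned nuclei (717). The peaks were not all the same: 427 members were kept with P21 alone, 436 with thinned nuclei, 443 without P56 sample 2, and 591 to 606 with each other sample left out. The number of members with separate levels was 655 to 665 with each adult sample left out. Choices made after the data were seen were the use of the 3 libraries with open calls at the Uty start, the removal of chromosomes X and M and repeated sequence, those levels without each sample, and the 6 other types without nephron progenitors and stroma 1 (463 members).

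DESeq2 called 10 of 330 members in the distal convoluted tubule (42 of 12247 peaks) where edgeR called 82, 182 of 484 in the connecting tubule (1080 of 24739 peaks) where edgeR called 301, 0 in intercalated cells where edgeR called 11, and 0 in immune cells where edgeR called 3, with 0 peaks called in all in both. With no filter the calls were 490 in PST, 163 in the distal convoluted tubule, 78 in intercalated cells, 325 in nephron progenitors and 0 in immune cells. With the 3 libraries alone they were 64 of 335 in podocytes (710 of 38507 peaks), 131 of 478 in stroma 1 (1115 of 81476) and 1 of 52 in immune cells (2 of 7239). With each sample left out, the members called in at least 1 of the 8 types were 371 to 619, and by type 0 to 302 in PST, 8 to 121 in the distal convoluted tubule, 181 to 341 in the connecting tubule, 0 to 65 in intercalated cells, 31 to 131 in podocytes, 230 to 462 in nephron progenitors, 128 to 493 in stroma 1 and 0 to 10 in immune cells. The share of all peaks called in at least 1 type was not computed for these settings, so the range of that count is not read as a trait of the members. In none of these settings did lower calls of members outnumber higher ones in any of the 8 types. The largest count in PST, 302 of 609 members without the P21 sample, stood beside 6493 of 59303 peaks. In podocytes it was 131 of 297 without the P21 sample, beside 1156 of 22702 peaks. In the distal convoluted tubule it was 121 of 294 without P56 sample 1, beside 466 of 11073 peaks. The connecting tubule had 341 of 434 without that sample, beside 3667 of 21845 peaks. Same-numbered P0 and P56 samples share only a number: the correlations of their deviations from the group means lay between -0.024 and 0.143 over the 13 types. A fit with the replicate number as a block called 35 of 327 members in intercalated cells (68 of 14852 peaks) and 250 of 589 in PST (4237 of 45868). It called 559 members in at least 1 type, for which the share of all peaks was not computed. Only the count in intercalated cells moved by over 1.5 times.

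Between P21 and P56, DESeq2 called 0 members in total and 0 in PCT, 0 in loop of Henle and 0 in principal cells. With no filter, where P21 again has 1 sample, the median log2 difference of members, P56 minus P21, was 0.07 in PCT and 0.46 in loop of Henle. It was 0.45 in principal cells, 0.18 in endothelial cells and 0.16 in stroma 2, and that of all peaks lay between 0.0 and 0.01. With each sample left out, the total was 5 to 209, with 5 to 199 in PCT, 1 to 39 in loop of Henle, 0 to 1 in principal cells, 1 to 14 in endothelial cells and 1 to 10 in stroma 2. For these totals, too, the share of all peaks called in at least 1 type was not computed. The share of members in promoters was 37.1% with start sites and promoters first and 3.16% with promoters of 2 kb. The half-site share was 61.2% in the whole peak, and all 28 motif shares were higher there, but the E-box share of members (20.2%) was then below that of eligible peaks (22.9%). The lists held 28 members with start sites within 5 kb in place of the window, 25 of them shared. The cause of each change was not tested, apart from the settings that widen or narrow a set by construction. Depth limits the rare types, where sums rest on few nuclei, and intervals for counts were not computed.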
